A study of Homo sapiens with 16 samples.

Results

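Plain TKO cells were examined for where H3K27me3 stood relative to H3K4me3. All 5881 H3K27me3 peaks and all 7396 H3K4me3 peaks deposited for these cells were taken, 13277 of the 45429 peaks in the 8 lists of the series. TKO cells derive from KMS-11, a human multiple myeloma line. Their labels give the cell type as plasma cell and the genotype as KMS-11 WHSC1(+/-), and WHSC1 is the older symbol of NSD2, a methyltransferase of H3K36. The same genotype and cell type stand in the labels of the other 3 forms, whose names give wild type NSD2 (WT) or NSD2 with D1240A or F1295A, whereas no construct is named for plain TKO. Both marks were profiled by ChIPmentation, which tagments immunoprecipitated chromatin with a transposase. For plain TKO, 2 H3K27me3 samples point to a single list and 1 H3K4me3 sample to another, so no value below has a spread between replicates and no test was run. Read depth is unknown. Intervals are exact 95% binomial (Clopper-Pearson) intervals. They cover counting error only and treat adjacent peaks or genes as if they were independent.

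H3K4me3 is laid down around transcription starts by SET1 and MLL complexes and is found at active and poised promoters. H3K27me3 is laid down by EZH2 within Polycomb repressive complex 2 and spreads over silent genes, often as broad domains. Where both sit on a promoter it is called bivalent, a state best known from developmental genes of stem cells. In such bulk lists the marks of different cells or of the 2 chromosome copies cannot be told apart, so a shared interval need not be a nucleosome with both marks.

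The 2 marks hardly met in TKO cells. Of 7396 H3K4me3 peaks, 80 shared at least 1 bp with an H3K27me3 peak, which was 1.08% (0.859 to 1.34). Seen from the other list, 80 of 5881 H3K27me3 peaks did so, 1.36% (1.08 to 1.69). No peak of either mark touched more than 1 peak of the other, so the 80 overlaps were 80 separate pairs. A further 43 pairs abutted, with a gap of at most 1 kb, 0.581% of the H3K4me3 list and 0.731% of the H3K27me3 list. With gaps from 1 to 10 kb, 454 H3K4me3 peaks (6.14%) and 445 H3K27me3 peaks (7.57%) were neighbours. The remaining 6819 H3K4me3 peaks (92.2%) and 5313 H3K27me3 peaks (90.3%) had no peak of the other mark within 10 kb. The shared bases came to 147 kb, or 0.669% of the 21.95 Mb under H3K4me3 and 0.221% of the 66.6 Mb under H3K27me3.

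The promoter sequences below are examples from the classes this comparison separates. They belong to the first 2 genes of each class by marked bases within 10 kb that have a listed start carrying the class by itself. They are the 250 bases before that start, from RefSeq on GRCh38.p14, written 5′ to 3′ along the gene, with CpG dinucleotides in capitals. DPM3 encodes a subunit of the dolichol phosphate mannose synthase of the endoplasmic reticulum (chr1:155140532-155140781, minus strand). ATP8B2 is a phospholipid flippase gene (chr1:154327497-154327746, plus strand). Both had both marks within 1 kb of the start, but H3K27me3 covered no base of either printed stretch. The H3K27me3 peak began at chr1:155140901 for DPM3 and ended at chr1:154326877 for ATP8B2.
DPM3: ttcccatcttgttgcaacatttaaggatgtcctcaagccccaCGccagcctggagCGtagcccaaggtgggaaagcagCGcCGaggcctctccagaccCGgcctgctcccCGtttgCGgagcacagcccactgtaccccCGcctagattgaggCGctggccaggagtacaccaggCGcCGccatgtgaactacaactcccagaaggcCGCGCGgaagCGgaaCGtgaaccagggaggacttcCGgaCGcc
ATP8B2: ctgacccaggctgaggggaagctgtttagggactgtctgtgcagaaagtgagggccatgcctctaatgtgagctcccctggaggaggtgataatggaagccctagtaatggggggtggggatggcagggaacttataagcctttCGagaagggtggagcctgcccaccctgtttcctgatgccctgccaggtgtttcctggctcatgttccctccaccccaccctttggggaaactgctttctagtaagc
RBFOX3, which encodes the neuronal splicing factor NeuN (chr17:79658976-79659225, minus strand), and LINGO1, a gene of a neuronal membrane protein (chr15:77820901-77821150, minus strand), had H3K27me3 and no H3K4me3.
RBFOX3: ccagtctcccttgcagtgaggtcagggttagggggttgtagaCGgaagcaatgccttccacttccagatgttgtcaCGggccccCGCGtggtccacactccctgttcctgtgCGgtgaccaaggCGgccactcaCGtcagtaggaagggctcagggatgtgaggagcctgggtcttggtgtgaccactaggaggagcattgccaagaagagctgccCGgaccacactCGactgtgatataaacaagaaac
LINGO1: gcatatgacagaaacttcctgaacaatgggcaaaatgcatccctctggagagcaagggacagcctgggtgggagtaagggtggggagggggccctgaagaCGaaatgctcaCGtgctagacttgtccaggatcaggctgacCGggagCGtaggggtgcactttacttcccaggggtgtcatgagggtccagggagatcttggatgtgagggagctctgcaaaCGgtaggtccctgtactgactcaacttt
PRDM1, which encodes BLIMP1, a master regulator of plasma cells (chr6:106086086-106086335, plus strand), and H4C9, a histone H4 gene (chr6:27139032-27139281, plus strand), had H3K4me3 and no H3K27me3.
PRDM1: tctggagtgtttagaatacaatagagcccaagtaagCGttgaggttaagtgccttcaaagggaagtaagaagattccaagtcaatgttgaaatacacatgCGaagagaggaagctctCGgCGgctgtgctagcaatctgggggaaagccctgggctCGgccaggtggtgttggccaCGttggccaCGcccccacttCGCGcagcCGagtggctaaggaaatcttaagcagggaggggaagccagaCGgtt
H4C9: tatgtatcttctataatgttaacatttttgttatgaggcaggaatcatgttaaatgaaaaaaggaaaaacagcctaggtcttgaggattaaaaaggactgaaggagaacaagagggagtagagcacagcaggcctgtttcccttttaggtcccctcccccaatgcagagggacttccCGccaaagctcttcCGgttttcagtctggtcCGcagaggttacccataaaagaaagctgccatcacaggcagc
The DPM3 promoter held 18 CpG and that of ATP8B2 held 1. The RBFOX3 and LINGO1 promoters held 9 and 5, and those of PRDM1 and H4C9 held 11 and 3. Single promoters thus varied widely within each class, and the values over all listed starts stand further on.

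The 80 overlaps were partial in most pairs. In 60 pairs the edges of the peaks crossed, and in 20 the H3K4me3 peak lay wholly inside the H3K27me3 peak. The shared stretch ranged from 21 to 4699 bp with a median of 1597 bp. It made up a median of 55.5% of the H3K4me3 peak and 16.6% of the H3K27me3 peak. In 62 of the 80 pairs the H3K4me3 peak lay within 1 kb of a listed start, or of a record end for genes without one. The shortest contact, 21 bp, lay inside DNAAF19, past its start, at the edge of an H3K4me3 peak that also reaches the start of EFTUD2.

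The longest shared stretch was at MAML3, a coactivator gene of Notch signalling, where an H3K4me3 peak of 4.70 kb (chr4:140149965-140154663) lay wholly inside an H3K27me3 peak of 5.32 kb. MYC, the transcription factor gene that drives growth in myeloma, came next. Its H3K4me3 peak of 5.82 kb (chr8:127733793-127739612) shared 4.15 kb with an H3K27me3 peak of 4.16 kb, and a second H3K27me3 peak of 9.79 kb stood nearby. The overlapping H3K27me3 peak of MYC was weak, at the 13.0th percentile of its list by total signal, where a percentile is the percent of peaks in the own list with a lower value. The H3K4me3 peak of MYC stood at the 83.3rd percentile. Inside SAMD11, away from any counted start, 4.06 kb were shared between a weak H3K4me3 peak (14.5th percentile) and a strong H3K27me3 domain of 33.4 kb (98.5th). At ATF3, a stress-response transcription factor gene, 3.97 kb were shared within the record, and at LHX4, a homeobox gene of pituitary and motor neuron development, 3.80 kb at the start. In both the H3K4me3 peak lay inside an H3K27me3 peak, of 12.9 kb at ATF3 and 12.4 kb at LHX4.

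Among overlapping H3K4me3 peaks the strongest by total signal were those of ATP8B2 (98.0th percentile), ZSWIM6 (96.7th), GLI1 with INHBE (95.8th), an interval without a counted gene at chr1:148457600-148460519 (94.02nd) and EFNA3 (91.5th). GLI1 encodes the effector of hedgehog signalling, and its H3K27me3 peak of 22.8 kb was also strong, at the 95.9th percentile. That peak shared only 0.986 kb with the H3K4me3 peak, which spans 8.95 kb from INHBE into GLI1. EFNA3, an ephrin gene, had 2.43 kb shared inside its record, with H3K27me3 of 10.1 kb at the 93.1st percentile. ZSWIM6 shared 0.948 kb with a modest H3K27me3 peak of 3.84 kb (23.9th percentile) whose edge lay over 1 kb from the listed start. Pairs in which both peaks ranked high, as at ATP8B2, GLI1 and EFNA3, stood beside pairs in which a strong peak met a weak peak of the other mark.

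As a group, the overlapping H3K4me3 peaks ranked low and the H3K27me3 peaks did not. By highest signal, the 80 H3K4me3 peaks had a median percentile of 26.8 (quartiles 8.70 and 59.7), against 49.5 for the 6819 exclusive ones. Their H3K27me3 partners had a median of 66.5 (42.2 and 88.5), against 48.2 for exclusive peaks. By total signal the medians were 36.6 for H3K4me3 and 55.8 for H3K27me3, and by mean signal 31.3 and 60.7. Abutting H3K4me3 peaks ranked high by highest signal, with a median of 68.4, so peaks that touch and peaks that nearly touch lay on opposite sides of the middle of the list. Split into 4 equal groups by highest signal, 2.06% (1.46 to 2.81) of the weakest H3K4me3 peaks overlapped H3K27me3 and 0.649% (0.336 to 1.13) of the strongest. For H3K27me3 the order was the opposite, from 0.408% (0.150 to 0.886) of the weakest to 2.38% (1.66 to 3.30) of the strongest. By total signal the 4 groups of H3K4me3 peaks had no such order, with 1.46%, 1.298%, 0.379% and 1.19% from weakest to strongest, and those of H3K27me3 had 1.09%, 1.43%, 1.22% and 1.70%. Overlapping peaks had median widths of 2941.5 bp for H3K4me3 and 7763.5 bp for H3K27me3, against 2707 and 7466 bp for exclusive peaks. Split into 4 groups by width, 0.433% (0.187 to 0.851) of the narrowest H3K4me3 peaks overlapped H3K27me3, then 1.03%, 1.62% (1.10 to 2.31) and 1.24% of the widest. For H3K27me3 the shares were 1.70%, 0.952%, 0.816% and 1.97% from narrowest to widest. Of 311 H3K27me3 domains at least 30 kb wide, 7 overlapped H3K4me3, which was 2.25%.

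**Figure D1:**
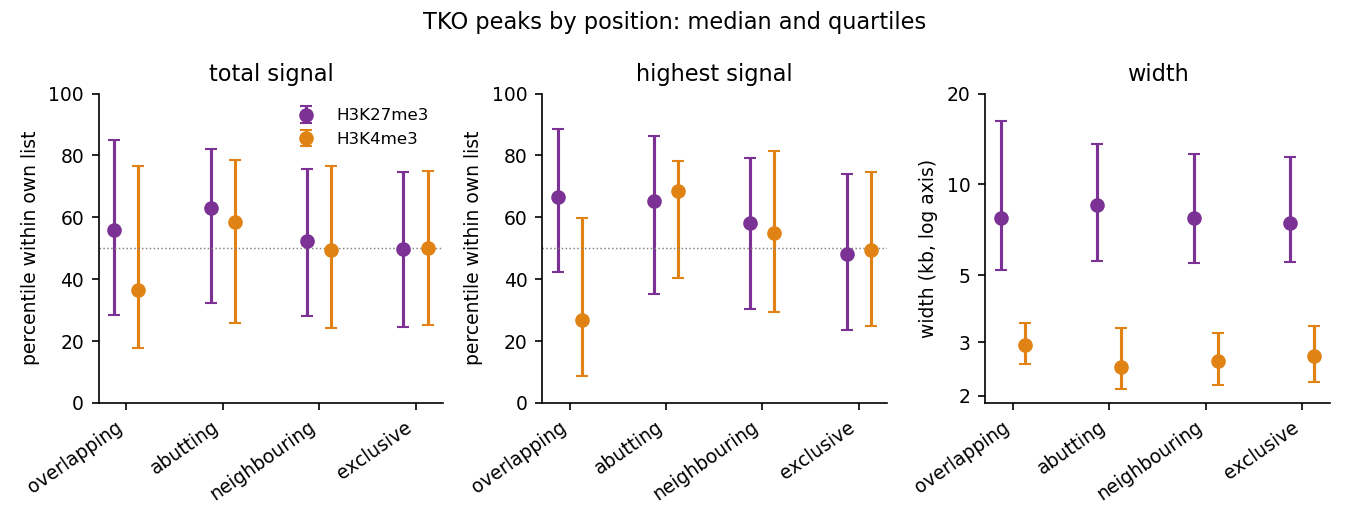
Median (point) and quartiles (bars) of the percentile by total signal, the percentile by highest signal, and the width in kb on a log axis, for TKO peaks of each mark in 4 classes of position. Overlapping H3K4me3 peaks have the lowest median by highest signal, 26.8, while overlapping H3K27me3 peaks stand at 66.5.

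Among H3K27me3 domains chosen for having no H3K4me3 within 10 kb, the 5 widest lay over RBFOX3 (252 kb at chr17:79093439-79345757), CASZ1, a zinc finger gene of heart and neuron development (241 kb), GSE1 (231 kb), the SOX8, SSTR5 and C1QTNF8 interval of chromosome 16 (165 kb) and LINGO1 (157 kb). All 5 stood above the 99th percentile of the list by total signal, from 99.6 at LINGO1 to 99.98 at GSE1. Total signal is summed over the peak, so choosing by width favours a high rank. Their highest signal ranged from 159.5 at LINGO1 to 1294 in the chromosome 16 interval, against a median of 63 in the whole H3K27me3 list. Only in CASZ1, LINGO1 and the chromosome 16 interval did the domain come within 1 kb of a counted start or record end. At RBFOX3 and GSE1 it lay in the record away from them. The widest H3K27me3 domain at a counted start of RBFOX3 was another, of 90.4 kb.

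Away from the 80 pairs the marks stood far apart. The median gap from a non-overlapping H3K27me3 peak to the nearest H3K4me3 peak was 78.4 kb (quartiles 33.6 and 156 kb). From a non-overlapping H3K4me3 peak to the nearest H3K27me3 peak it was 166 kb (52.4 and 723 kb). More than 1 Mb separated 1552 H3K4me3 peaks from any H3K27me3 peak, 21.2% of those not overlapping, whereas 13 H3K27me3 peaks (0.224%) were as far from H3K4me3. The number of H3K27me3 peaks per H3K4me3 peak ranged from 0.229 on the X chromosome (38 and 166 peaks) to 1.41 on chromosome 20 (284 and 202 peaks). Chromosome 1, with 996 H3K27me3 and 789 H3K4me3 peaks, held 21 of the 80 overlaps and 10 of the 43 abutting pairs, and chromosomes 13, 18, 21 and X held none of either.

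**Figure D2:**
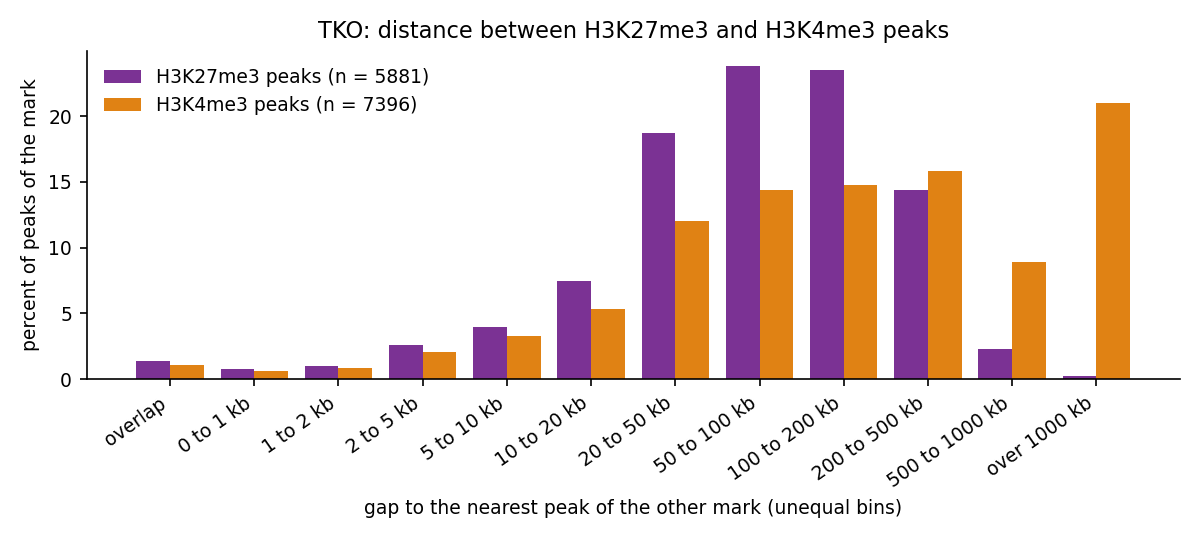
Percent of TKO peaks of each mark in unequal bins of the gap to the nearest peak of the other mark, with overlapping peaks in the first bin. H3K27me3 peaks crowd between 20 and 200 kb from H3K4me3, while 21.0% of H3K4me3 peaks lie over 1 Mb from H3K27me3.

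A few H3K4me3 peaks sat in gaps of H3K27me3. In 18 cases (0.243% of the list) H3K27me3 stood within 10 kb on both sides without overlap, and 9 of the 18 were on chromosome 1. They included the peak at HOXB7 and HOXB8, homeobox genes of body axis patterning, with gaps of 3233 and 1894 bp, and that of IER5, an early response gene, with 289 and 3586 bp. Others were at SOCS3, the feedback inhibitor of cytokine signalling (9841 and 1022 bp), at FOSL2 of the AP-1 family (6252 and 3497 bp) and at the calcium-binding protein genes S100A6 (6393 and 9249 bp) and S100A11 (8622 and 2095 bp). The peak of the splicing factor gene SF3B4 lay between gaps of 5194 and 1816 bp. IER5 ranked at the 97.5th percentile of H3K4me3 by total signal and S100A6 at the 15.9th, so such peaks were not of 1 strength. These genes were chosen for mention after their values were seen.

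Near H3K4me3 peaks, H3K27me3 lay before the start of the gene far more often than past it. The side was read for H3K4me3 peaks that touched listed starts of a single strand, with "before" meaning upstream in the direction of transcription. Of 28 abutting peaks, 26 had H3K27me3 before the start only, 0 past it only and 2 on both sides. Among neighbours, 264 had it before and 37 past, which was 87.7% (83.5 to 91.2) of those with it on a single side. Among overlapping pairs H3K27me3 reached out before the start in 25, past it in 5 and to both sides in 9. By the nearest H3K27me3 peak, the share before the start was 100% (28 of 28, 87.7 to 100) at gaps up to 1 kb, 97.7% at 1 to 2 kb, 90.6% at 2 to 5 kb and 81.4% at 5 to 10 kb. It was 67.7% at 10 to 20 kb and 56.7% at 20 to 50 kb, and at 100 to 200 kb it was 51.6% (47.9 to 55.3). Up to 10 kb, 297 of 338 nearest peaks lay before the start, 87.9% (83.9 to 91.2). Among genes whose record is at least 20 kb long the share was 96.0% (91.9 to 98.4, 167 of 174).

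**Figure D3:**
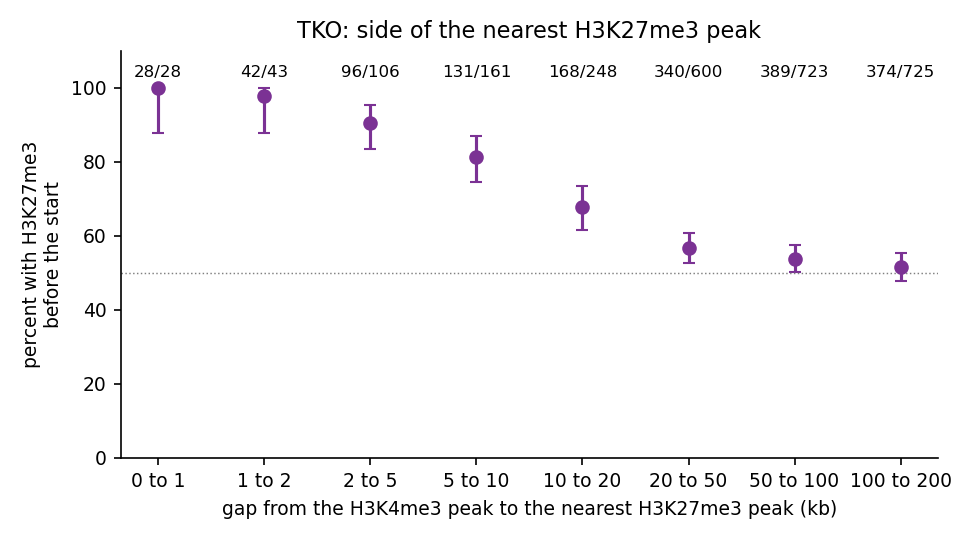
Percent of TKO H3K4me3 peaks at starts of a single strand whose nearest H3K27me3 peak lies before the start, by gap in kb, with exact 95% intervals and counts above. The share falls from 100% at gaps up to 1 kb to 51.6% at 100 to 200 kb, and the dotted line marks 50%.

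The same asymmetry was seen in the cover around all starts with H3K4me3 and no H3K27me3. The class fixes the cover within 1 kb, so only positions beyond it are given. Of 8732 such starts, 2.03% had H3K27me3 at 5 kb before the start and 0.252% at 5 kb past it. At 10 kb the values were 3.49% and 0.825%, at 20 kb 4.07% and 2.29%, and at 50 kb 5.36% and 4.23%. The 11916 starts with neither mark did not show this order, with 1.69% before and 2.25% past the start at 5 kb, and 2.76% and 3.02% at 10 kb. At the 1398 starts with H3K27me3 only, the cover leaned into the gene, with 47.6% at 5 kb before and 62.7% at 5 kb past. At the 86 starts with both marks it leaned the other way, with 50% and 19.8%. Read along the chromosome without regard to strand, H3K27me3 covered 0.622% of H3K4me3 peak centres, 2.64% and 2.79% of positions 10 kb to either side, and 4.92% and 5.44% at 50 kb. H3K4me3 covered 0.340% of H3K27me3 centres, and 2.18% and 2.06% of positions at 50 kb.

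**Figure D4:**
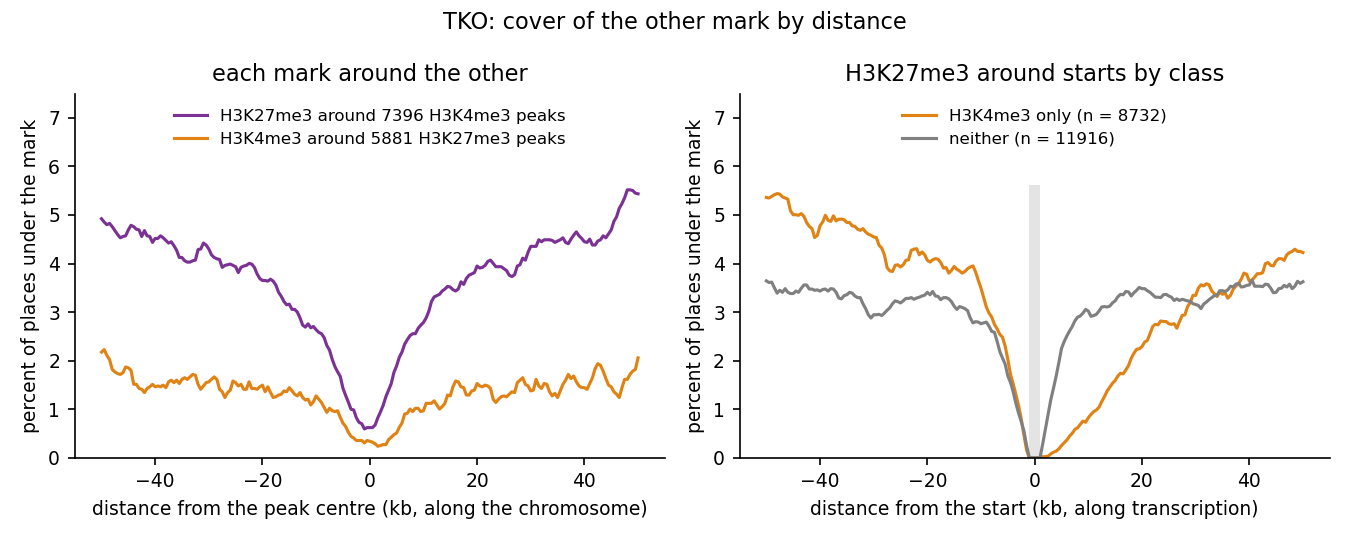
Percent of places under the other mark by distance in kb, around TKO peak centres along the chromosome (left) and of H3K27me3 around listed starts along transcription (right, with the 1 kb either side that defines the class in grey). Around starts with H3K4me3 only, H3K27me3 cover is 2.03% at 5 kb before and 0.252% at 5 kb past the start, while around starts with neither mark it is 1.69% and 2.25%.

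Genes were sorted by the peaks within 1 kb of a listed start, or of either end of the record for genes without one. Of 19974 protein-coding genes on the autosomes and X, 143 had both marks (0.716%), 1571 H3K27me3 only (7.87%), 7856 H3K4me3 only (39.3%) and 10404 neither (52.1%). H3K27me3 thus stood at 1.79% (1.51 to 2.10) of the 7999 genes with H3K4me3 and at 13.1% (12.5 to 13.7) of the 11975 genes without it. From the other side, 8.34% (7.08 to 9.75) of the 1714 genes with H3K27me3 had H3K4me3. H3K27me3 only stood at 12.5% of genes read at record ends and 6.63% of genes with a listed start. H3K4me3 only stood at 30.3% and 41.7% of them, and both marks at 1.03% and 0.632%. Elsewhere in the gene record H3K27me3 was also rare in the H3K4me3 class. It was found anywhere in the record of 1.53% of genes with H3K4me3 only, against 6.42% of genes with neither mark at the start. Genes with H3K27me3 only were the shortest class, with a median record of 17.4 kb against 30.4 kb for H3K4me3 only, 31.0 kb for both and 20.8 kb for neither.

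Fewer than the 143 genes had the marks at the same place. In 70 of them the peaks themselves overlapped, and in the other 73 they stood apart with a median gap of 8611 bp. The marks met at the same start or end in 81 genes and only at different starts or ends of the gene in 62. CCND3, the cyclin D3 gene, had its peaks 102578 bp apart, and ANK3, which encodes the membrane adaptor ankyrin G, 156140 bp apart. ZBTB45 and RASSF5 were also of this kind, with gaps of 17576 and 41447 bp. DGKA, a diacylglycerol kinase gene, had its peaks 1597 bp apart. Those with the most marked bases and overlapping peaks were GLI1 (19.7 kb H3K27me3 and 8.95 kb H3K4me3 within 10 kb), MYC (13.9 and 5.82 kb), DPM3 (7.11 and 5.75 kb) and ATP8B2 (9.13 and 5.47 kb). GLI1 has no listed start, and its marks stood at different record ends, so it is among the 62. DPM3 shared only 85 bp between its peaks.

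Further genes with overlapping or closely spaced peaks are named here after their values were seen, and stand for no group. NR4A3, an immediate early nuclear receptor gene, shared 3166 bp, and DUSP4, a phosphatase gene that damps MAP kinase signalling, had its H3K4me3 peak of 3.70 kb wholly under H3K27me3. EGR3, an early growth response factor gene, shared 725 bp, with the H3K27me3 edge too far from the start for the gene to count as both. NR3C2, the mineralocorticoid receptor gene, shared 3155 bp, and at ETV5, an ETS factor gene, the contact was 211 bp. IER5 and ERBB3, a receptor gene of the EGFR family, did not overlap but had gaps of 289 and 393 bp. The peaks of SLC2A1, the glucose transporter gene, stood 79 bp apart. ERBB3 combined strong peaks of both marks, at the 84.5th percentile for H3K27me3 and the 99.7th for H3K4me3.

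Genes with H3K27me3 and no H3K4me3 at the counted starts were ordered by H3K27me3 bases within 10 kb of their starts or record ends. The most was found at RBFOX3 (128 kb), LINGO1 (79.7 kb), BAIAP2 (52.5 kb), PRKCZ (52.01 kb) and TNS1 (49.3 kb). SYT2, XKR7 and LOC124903828 followed, each with 40.0 kb. A single start holds at most 20.001 kb by this measure, the value of FZD4 and ITGA5 below, and separate starts add up. The order thus depends on the number of starts and is not one of domain length. The BAIAP2 domain of 76.3 kb nevertheless held 1 of the 80 overlaps, with an H3K4me3 peak of 2880 bp wholly inside it, in the gene record and away from any counted start. SYT2 encodes a calcium sensor of neurotransmitter release, PRKCZ an atypical protein kinase C and TNS1 a focal adhesion protein. By the same measure, the most H3K4me3 without H3K27me3 was at PRDM1 (22.6 kb), H4C9 (15.95 kb), MAFG (14.5 kb) and NR2F2 (14.4 kb). PRRT2 (13.8 kb), SHC1 (13.6 kb), FKBP2 (13.4 kb) and PYCR1 (13.3 kb) came next. FKBP2 encodes a folding enzyme of the endoplasmic reticulum and PYCR1 an enzyme of proline synthesis. Neighbours such as MAFG and PYCR1 share peaks.

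The plasma cell label was checked on 20 identity genes, of which 14 had H3K4me3 only, 2 H3K27me3 only, 4 neither and 0 both. In a shorter set of 10 of these markers, 6 had H3K4me3 only, 2 H3K27me3 only and 2 neither. The 20 genes include HERPUD1, XBP1 and SSR4 of the secretory list, where all 40 genes had H3K4me3. IRF4 (10.1 kb of H3K4me3), XBP1 (6.27 kb) and PRDM1, the core transcription factors, had H3K4me3 and no H3K27me3 within 10 kb. The antibody target genes SDC1 (CD138) and SLAMF7 had H3K27me3 only, with 7.63 and 10.3 kb, and CD38 and POU2AF1 had neither mark. The list's share with H3K4me3, 70.0%, compares with 40.0% of all genes, and its share with H3K27me3, 10.0%, with 8.58%. Of the 25 B cell genes, 20 had neither mark (80%, against 52.1% of all genes), PAX5 among them. CD22, CR2 and FCER2 had H3K27me3 only, and CIITA and BACH2 H3K4me3 only. Of 23 genes that mark T, NK or myeloid cells, 9 had H3K27me3 only and 0 had H3K4me3, with 21.1 kb at MPO, 16.9 kb at CD4 and 15.6 kb at CSF1R. Of 18 stromal, endothelial and epithelial markers, 3 had H3K27me3 only (COL1A1, CDH5 and KRT18) and ACTA2 alone had H3K4me3. H3K27me3 only thus stood at 39.1% of T, NK and myeloid genes and 16.7% of the last list, against 7.87% of all genes.

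**Figure D5:**
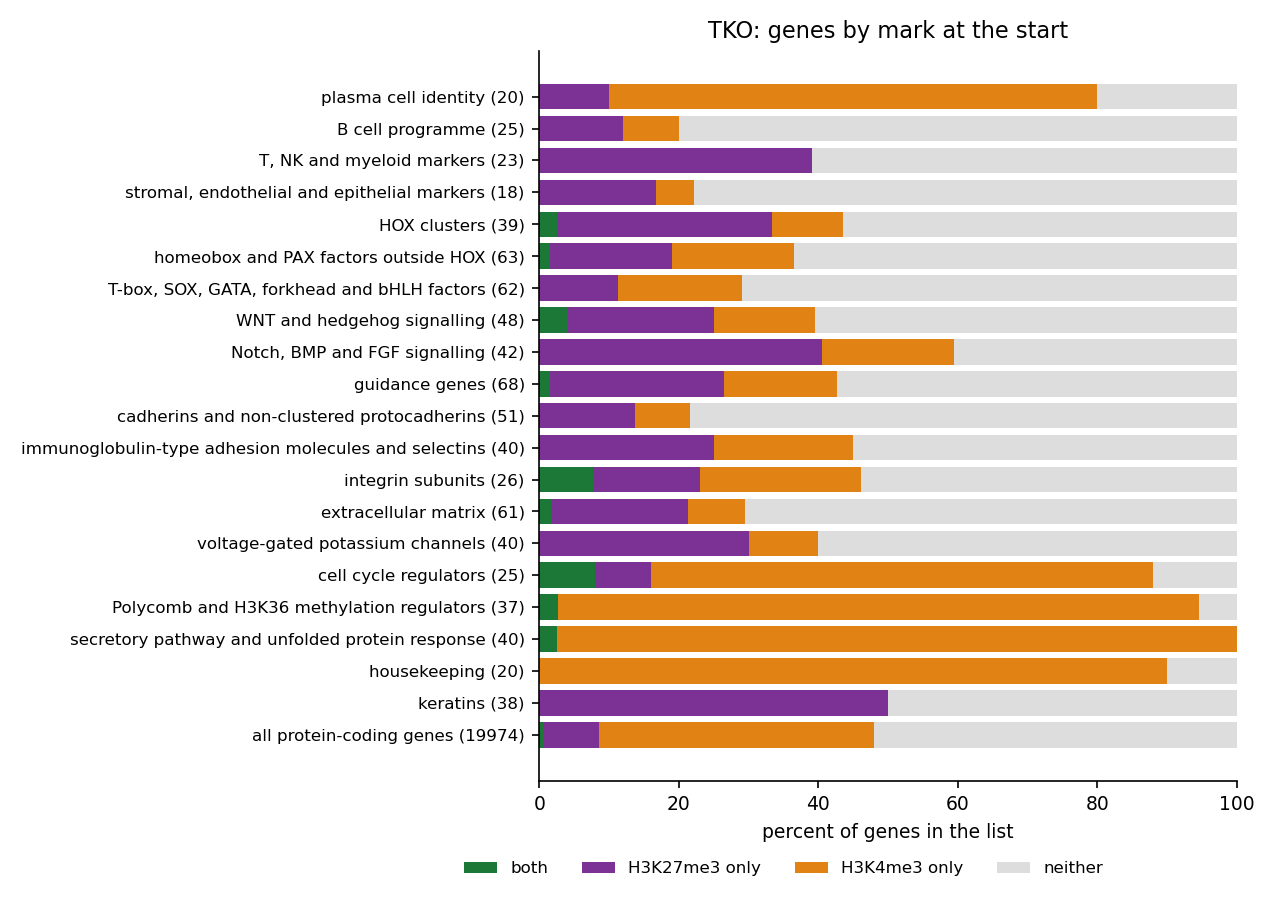
Percent of genes with both marks, H3K27me3 only, H3K4me3 only or neither in TKO, for 20 gene lists and all 19974 protein-coding genes (gene numbers in brackets). Marks were read within 1 kb of any listed start, or of both record ends for genes without one, so both marks need not share a start. Secretory, Polycomb and housekeeping lists are nearly all H3K4me3 only, keratins split between H3K27me3 only and neither, and no list has both marks at more than 8% of its genes.

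In the lists of developmental factors the share with H3K27me3 only was 30.8% for HOX genes, 17.5% for other homeobox and PAX genes and 11.3% for T-box, SOX and related factors, against 7.87% of all genes. The share with H3K4me3 only was 10.3%, 17.5% and 17.7%, against 39.3%. Both marks stood at 2.56%, 1.59% and 0%, against 0.716%, which comes to 1, 1 and 0 genes. A listed start was given for 20 of 39, 42 of 63 and 39 of 62 of these genes, against 79.2% of all genes. Stromal markers (6 of 18), keratins (18 of 38) and T, NK and myeloid markers (13 of 23) also had few. So did Notch, BMP and FGF genes (27 of 42) and cadherins (33 of 51). The same held for voltage-gated potassium channels and immunoglobulin-type adhesion genes (26 of 40 each) and integrins (17 of 26). Genes without a listed start were read at both record ends, where H3K27me3 only was more common over all genes (12.5% against 6.63%). How much of the contrasts with all genes comes from this reading was not tested for any list, here or in the other paragraphs. Of 39 HOX genes, 12 had H3K27me3 only, 4 H3K4me3 only and 22 neither. HOXB8, which has no listed start, had the marks at different record ends, without contact of its peaks. The 9 HOXC genes with H3K27me3 lay under 3 peaks, the broadest at HOXC6 with 87.9 kb. HOXC6 had 33.9 kb and HOXC12 24.1 kb of H3K27me3 within 10 kb of the starts or record ends. On chromosome 17 HOXB6, HOXB9 and HOXB13 had H3K27me3 and HOXB7 H3K4me3, while on chromosome 7 HOXA3 and HOXA4 had H3K4me3. HOXA3 was weak, at the 0.595th percentile by total signal. Of 63 homeobox and PAX genes outside the clusters, 11 had each mark alone and LHX4 both. EMX1 of the forebrain had 31.1 kb and PAX2 of the kidney 26.9 kb of H3K27me3, and MEIS1, a HOX cofactor gene, had 8.45 kb of H3K4me3 and LHX8 7.22 kb. Among 62 T-box, SOX, GATA, forkhead and bHLH factors, 7 had H3K27me3 only, with 32.5 kb at GATA5 and 23.7 kb at SOX8, and 11 had H3K4me3 only, led by SOX4 (7.46 kb) and RUNX2 (7.33 kb).

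In the 3 signalling lists more genes had H3K27me3 only than H3K4me3 only. The WNT and hedgehog list had 20.8% and 14.6%, and the guidance list 25% and 16.2%, against 7.87% and 39.3% of all genes. Of 42 Notch, BMP and FGF genes, 17 had H3K27me3 only (40.5%, against 7.87% of all genes), 8 H3K4me3 only and 0 both. Of the Notch ligands, DLL1, DLL3 and DLL4 had H3K27me3, JAG1 had H3K4me3 and JAG2 neither. Of the receptors, NOTCH1 and NOTCH2 had H3K4me3, NOTCH4 had H3K27me3 and NOTCH3 neither. Of the target genes, HES1 (19.8 kb), HES2, HES5 (9.62 kb) and HEYL had H3K27me3, HEY1 had H3K4me3, and HES4 and HEY2 had neither. The growth factor gene FGF9 had 5.96 kb of H3K4me3 but was weak, at the 8.80th percentile by total signal. The BMP ligand GDF6 had 29.0 kb of H3K27me3, and BMP4 had 3.72 kb. Of 48 WNT and hedgehog genes, 10 had H3K27me3 only, with 29.6 kb at WNT7B and 20.001 kb at the receptor FZD4, and 7 H3K4me3 only, with 9.22 kb at the hedgehog receptor PTCH1 and 5.52 kb at the ligand WNT10B. WNT10B was weak, at the 3.75th percentile by total signal. GLI1, at different record ends, and the WNT receptor FZD1 had both. At FZD1 the overlap of 2360 bp joined peaks low in both lists, at the 31.2nd percentile for H3K4me3 and the 7.24th for H3K27me3. Of 68 guidance genes, 17 had H3K27me3 only, led by SEMA5B (28.8 kb) and the netrin receptor UNC5B (23.9 kb), 11 H3K4me3 only, led by ROBO1 (4.58 kb) and the ephrin receptor EPHA6 (4.54 kb), and SLIT1, the ROBO ligand, both.

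Adhesion genes are named in the series title. Over all genes, 7.87% had H3K27me3 only and 39.3% H3K4me3 only. Those shares were 13.7% and 7.84% for cadherins, 25% and 20% for immunoglobulin-type adhesion genes, and 15.4% and 23.1% for integrins. Matrix genes had 19.7% and 8.20%, voltage-gated potassium channels 30% and 10%, and keratins 50% and 0%. Neither mark stood at 78.4% of cadherins and 70.5% of matrix genes, against 52.1% of all genes, while immunoglobulin-type adhesion genes (55%) and integrins (53.8%) were near that share. Of 51 cadherins, 7 had H3K27me3 only (37.5 kb at CDH22 and 23.6 kb at CDH23), 4 H3K4me3 only (5.82 kb at PCDH10 and 4.09 kb at FAT4) and 40 neither. Immunoglobulin-type adhesion genes numbered 10 with H3K27me3 only and 8 with H3K4me3 only of 40, with 17.3 kb at NECTIN4 and 17.1 kb at CEACAM6 of H3K27me3, and 4.43 kb at ICAM5 and 4.41 kb at NECTIN1 of H3K4me3. Among 26 integrin subunits, ITGA5 (20.001 kb), ITGB2, ITGB4 and ITGA2 had H3K27me3 only, and 6 had H3K4me3 only, ITGB7 with 8.88 kb, ITGB8 with 5.08 kb and ITGB1 among them. ITGA3, a laminin receptor subunit without a listed start, had both, with 1420 bp shared at a record end, and ITGA7 both with peaks 27795 bp apart. Of 61 matrix genes, 12 had H3K27me3 only, led by LAMC3 (28.5 kb) and COL18A1 (28.1 kb), and 5 H3K4me3 only, led by LAMC1 (3.03 kb) and THBS3 (2.65 kb). LAMC3 has no listed start, and its H3K27me3 peak at a counted record end was 7.66 kb and weak, at the 6.21st percentile. VCAN, the proteoglycan versican, had both, with a shared 1438 bp between weak peaks, at the 19.997th percentile for H3K4me3 and the 10.95th for H3K27me3. Among 40 voltage-gated potassium channels 12 had H3K27me3 only and 4 H3K4me3 only, with 4.65 kb at KCNQ5 and 4.01 kb at KCNA3. Of 38 keratins, 19 had H3K27me3 only under 16 peaks, with 34.2 kb at KRT80 and 25.5 kb at KRT78, and 0 had H3K4me3.

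Secretory, chromatin, cell cycle and housekeeping genes mostly had H3K4me3 only, at 97.5%, 91.9%, 72% and 90%, against 39.3% of all genes. H3K27me3, alone or with H3K4me3, stood at 2.5%, 2.70%, 16% and 0%, against 8.58%. All 40 secretory pathway and unfolded protein response genes had H3K4me3, from CALR (9.14 kb) and MANF (6.54 kb) to SEC61B, and only PDIA6 had H3K27me3 as well, at another start with a gap of 8611 bp. Of 37 Polycomb and H3K36 methylation regulators, 35 had H3K4me3, with 12.1 kb at BMI1 and 8.85 kb at NSD3. NSD2 had 3.70 kb at the 14.0th percentile and EZH2 3.68 kb at the 95.4th. CBX8, a chromobox subunit of Polycomb repressive complex 1, was the exception with both. It has no listed start, and 2077 bp were shared at a record end with an H3K27me3 peak of 17.2 kb. Of 25 cell cycle regulators, 18 had H3K4me3 only, with 10.5 kb at CDKN1B and 9.46 kb at CDKN2C, MYC and CCND3 both, and MYCL and CDKN1A H3K27me3 only. Of 20 housekeeping genes, 18 had H3K4me3 and 0 H3K27me3, with 6.95 kb at the elongation factor gene EEF1A1, 5.15 kb at GAPDH and 4.29 kb at ACTB. CCND2, the cyclin D2 gene, had 8.32 kb and the tumour suppressor gene CDKN2A 4.62 kb of H3K4me3 only. FGFR3, a growth factor receptor gene, had 9.22 kb of H3K27me3 only, and HOXA9 had neither mark.

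The 250 bases before each of 22132 listed starts differed by class, as a description of genes and not of replicates. The median number of CpG was 23 at starts with H3K4me3 only, 22.5 at those with both, 10 at those with H3K27me3 only and 9 at those with neither. Observed over expected CpG had medians of 0.855, 0.792, 0.450 and 0.481 in that order. Starts with H3K27me3 only were nevertheless rich in G and C, with a median of 63.2% against 57.2% for neither, 66.0% for H3K4me3 only and 69.2% for both. With G plus C above 55% and a ratio above 0.65 taken as CpG-rich, 67.4% of starts with both marks were so, 76.6% with H3K4me3 only, 36.3% with H3K27me3 only and 33.3% with neither, against 50.7% of all. Starts with H3K27me3 only did not differ much by the width of the peak, with 41.1% CpG-rich in the narrowest of 4 groups and 34.1% in the broadest. The motif TATAAA, searched on both strands, was found before 2.33% of starts with both marks, 4.41% with H3K4me3 only, 9.66% with H3K27me3 only and 12.3% with neither, against 8.996% of all. GGGCGG was found before 66.3%, 71.7%, 51.2% and 40.8% in the same order, against 53.7%, and CCAAT before 36.05%, 34.8%, 24.2% and 32.1%, against 32.7%. The start base itself lay under H3K27me3 at 89.8% of starts with H3K27me3 only and at 62.8% of those with both.

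The other 3 forms had separate lists of each mark, also 1 per form, and lists of other lengths. The H3K27me3 lists held 3790 peaks in WT, 2188 in D1240A and 2083 in F1295A, against 5881 in TKO. The H3K4me3 lists held 8140, 7712 and 8239 peaks, against 7396. H3K4me3 peaks overlapping H3K27me3 numbered 158 in WT (1.94%, 1.65 to 2.26), 68 in D1240A (0.882%) and 99 in F1295A (1.20%). These are shares of the H3K4me3 lists. In TKO the 80 overlaps came from the longest H3K27me3 list. Genes with both marks were 214 in WT (1.07%), 78 in D1240A (0.391%) and 119 in F1295A (0.596%). Among genes with H3K27me3, the share that had H3K4me3 was 12.8% in WT, 8.30% in D1240A and 11.7% in F1295A, against 8.34% in TKO. Of the 143 genes with both in TKO, 103 had both in WT (72.0%, and 48.1% of the WT genes), 44 in D1240A (30.8% and 56.4%) and 63 in F1295A (44.1% and 52.9%). In WT and F1295A the rest had H3K4me3 only, as in D1240A with the exception of HAUS7, which had H3K27me3 only. GLI1, LHX4, ITGA3, ITGA7, CBX8 and DUSP4 belonged to the 40 genes with both marks in all 4 forms. VCAN, FZD1, ATP8B2, IER5 and SLC2A1 belonged to the 37 that had both in TKO alone. Whether this count follows from the longer H3K27me3 list of TKO was not tested. MYC had both in TKO and WT and H3K4me3 only in D1240A and F1295A. SDC1 and FGFR3, with H3K27me3 only in TKO, had both in WT and F1295A. The nearest H3K27me3 peak within 10 kb lay before the start for 80.1% (74.9 to 84.8) of H3K4me3 peaks in WT, 79.4% in D1240A and 77.1% in F1295A. These differences between forms have no replicate check.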

How the data were processed

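Per the labels, cells were fixed with formaldehyde and sonicated chromatin was immunoprecipitated and tagmented. The submitters' processing notes name GRCh38 and 4 tools, which are Trimmomatic 0.36 and FastQC 0.11.4 besides Bowtie2 2.4.5 and SEACR 1.3. No source used here gives the calling mode, control or threshold, or how 2 H3K27me3 replicates became 1 list. The deposited lists hold, per peak, the total signal, a score summed over the peak, and the highest signal (coverage), both as the authors' peak caller wrote them. These served only to rank peaks within a list, because list length may follow depth or threshold. IgG samples were not analysed here.

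Overlaps (at least 1 bp), gaps and counts were computed in Python 3.11.15 with numpy 2.4.6, pandas 2.3.3 and scipy 1.17.1, and figures with matplotlib 3.10.9, after a test on simulated peaks. Genes and promoters came from RefSeq GRCh38.p14 tables. Of 19974 protein-coding genes, 15812 had 22132 listed starts and 4162 were read at both record ends. All 772 genes of the 20 lists matched. Members, lists and rules were chosen with earlier results of these data known.

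Named by rule were up to 3 members of each list with both marks and 2 with a single mark, in order of marked bases within 10 kb (the smaller mark for both), the first 8 of each class over all genes, 14 genes always reported, and 5 peaks each by largest overlap, strongest overlap and widest exclusive H3K27me3. A further rule, for H3K27me3 peaks over the most H3K4me3 peaks, named none because each had 1. Printed promoters were the first 2 per class by the same order outside chromosome 8, with the further condition, added after seeing the data, that the start itself carries the class, which passes over ZBTB45 and RASSF5. Other genes were named after their values were seen. Some genes that the rule names are not reported here. Alternatives were other thresholds of overlap, gap, window and strength, and leaving out chromosome 1.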

Additional observations from a re-analysis of the deposited data

How the results depend on the processing

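No paired analysis was possible because both H3K27me3 replicates stand in 1 list and H3K4me3 has 1 sample, and no replicate could be left out. In H3K4me3 peaks the overlapping share was 0.622% where 50% of the H3K4me3 peak had to be covered (abutting 1.04%) and 0.379% in the stronger 50% of each list (abutting 0.270%). In H3K27me3 peaks these shares were 0.782% (abutting 1.31%) and 0.476% (abutting 0.340%). With equal numbers of the strongest peaks the overlapping H3K27me3 share was 0.986%, and with peaks of the same mark joined within 5 kb it was 1.71%. An abutting gap of up to 2.5 kb gave 1.60% of H3K4me3 and 2.01% of H3K27me3 peaks. Genes with both marks numbered 230 with a window of 2.5 kb, 223 at either end of the record, 312 over whole records, 31 with the stronger 50% of each list, 70 with overlapping peaks and, added after seeing the data, 81 at the same start or record end. Genes with H3K4me3 only were 4265 with the stronger 50%. The median percentile of overlapping H3K4me3 peaks was 26.8 by highest signal against 36.6 by total. The share with H3K27me3 before the start, whose alternatives were all added after seeing the data, was 96.0% for records of at least 20 kb and 80.6% with the stronger 50%. The other 67 values of these kinds did not move by 1.5 times for a count, or out of the interval or spread of the value first given. They leave out the neighbouring and exclusive shares, some of which moved. With the stronger 50%, exclusive peaks were 95.7% of H3K4me3 and 94.7% of H3K27me3, and neighbouring peaks 3.62% and 4.49%. Without chromosome 1, exclusive peaks were 93.2% and 91.1%. With joined peaks, exclusive H3K27me3 peaks were 88.4%. The share of genes with H3K27me3 exceeded that of all genes in 17 of 20 lists, and in 16 to 18 under the alternatives. The lists were chosen with earlier results of these data known, so this tally is no test. It also counts lists close to the 8.58% of all genes, such as plasma cell identity at 10.0% and T-box, SOX and related factors at 11.3%. Of 180 counts of list members under other settings, 34 moved by over 1.5 times, and 21 of these did so with the stronger 50%. The lists hold no read totals, so what depth limits cannot be given. Of the H3K27me3 peaks, 12 were under 500 bp wide, the narrowest 3 bp.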
